A study of Mus musculus with 30 samples.

Results

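The genes described here are 10 genes by which activation states of macrophages are commonly read: Arg1, Nos2, Acod1, Chil3, Retnla, Mrc1, Cd163, Msr1, Trem2 and Gpnmb. They were taken by name from the deposited table of read counts, 10 of its 43629 genes, and each name matched 1 Ensembl gene. All were measured by RNA-seq of fracture callus from male C57BL/6J mice that were 20 weeks old at surgery. The right tibia was cut in an open osteotomy and held by an intramedullary nail. Lean mice were compared with diet-induced obese (DIO) mice, which were fed a high-fat diet, and the labels name no other treatment or allele. Lean callus was harvested at 4 times, d3 to d10 after fracture. DIO callus was harvested at the same times and also on d14 and d21, with d5 and d7 lying between d3 and d10 in both diets. Each group held 3 mice with 1 callus per library, which gave 12 lean and 18 DIO libraries. Lean callus of d14 and d21 was not analysed here, and only males were used.

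Macrophages enter a fracture with the first inflammation, clear blood and dead tissue, and later sit beside the cells that form and resorb the callus. Bacterial products and interferon-gamma are known to induce Nos2 and Acod1, whose products are nitric oxide and itaconate. Interleukin-4 and interleukin-13 are known to induce Arg1, Chil3, Retnla and Mrc1 in mouse macrophages through the transcription factor STAT6. Cd163 and Msr1 are scavenger receptors, and Trem2 and Gpnmb mark macrophages that take up lipid and debris. Several are not private to macrophages: neutrophils make Chil3, and osteoclasts make Gpnmb. In RNA of a whole callus, fewer cells of a type and less RNA per cell cannot be told apart.

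Library totals ran from 13247122 to 26365620 counts with a median of 16854427. Levels are given as CPM, counts scaled to the size of each library with trimmed-mean (TMM) factors over all 30 libraries. Differences are log2 fold differences with their standard errors from edgeR fits, and a gene was called where its Benjamini-Hochberg adjusted p over all genes tested was under 0.05. Lean d10 replicate 1 stood farthest from the other libraries of its group, with a mean Pearson r of 0.944 to them over the log2 CPM of 17357 genes. Macrophage presence was checked with 16 marker genes, among them Adgre1, Csf1r, Cd68 and C1qa. Their summed level lay between 2495 and 7110 CPM in every library. Some of the 16 are shared with other cells, so the sum is no count of macrophages. Osteoclasts also depend on Csf1r, and the study's granulocyte gate included CD11b, the product of the marker Itgam. Neutrophil markers, 14 genes, summed to between 1873 and 32383 CPM, and 10 osteoclast markers to between 634 and 15495 CPM.

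Promoter sequence is shown for 4 members whose results turn on a late rise (Retnla, Chil3), on 1 callus (Acod1) or on a diet (Gpnmb). RefSeq held a promoter window for 7 of the 10 members, Arg1, Nos2 and Msr1 being the others. The windows start 250 bases before the RefSeq start site of each gene and end before any base that GENCODE M21 places in the gene. They are on build GRCm38.p6 and are written 5′ to 3′ along the strand of the gene. Capitals mark matches, on both strands, to 5 patterns: TTCNNNNGAA, the spacing bound by STAT6, TTGCNNAA for C/EBP factors, GAGGAA for PU.1, TCATGTG for the MITF family and TATAAA. Retnla lies on the plus strand with the window at chr16:48842359-48842550, Chil3 on the minus strand at chr3:106167565-106167814, Acod1 on the plus strand at chr14:103046762-103046976, and Gpnmb on the plus strand at chr6:49036268-49036517.
Retnla: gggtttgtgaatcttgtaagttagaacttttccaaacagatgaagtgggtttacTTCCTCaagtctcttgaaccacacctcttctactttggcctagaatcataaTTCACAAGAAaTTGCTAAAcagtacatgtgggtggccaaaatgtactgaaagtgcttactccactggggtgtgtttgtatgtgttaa
Chil3: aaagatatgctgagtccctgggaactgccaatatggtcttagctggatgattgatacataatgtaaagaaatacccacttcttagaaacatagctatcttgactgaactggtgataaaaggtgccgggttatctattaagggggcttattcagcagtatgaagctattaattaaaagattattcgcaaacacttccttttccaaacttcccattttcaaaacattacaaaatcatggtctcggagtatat
Acod1: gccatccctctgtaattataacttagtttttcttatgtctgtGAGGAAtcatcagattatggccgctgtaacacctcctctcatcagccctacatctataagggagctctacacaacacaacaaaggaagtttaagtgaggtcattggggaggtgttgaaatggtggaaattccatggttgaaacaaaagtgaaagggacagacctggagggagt
Gpnmb: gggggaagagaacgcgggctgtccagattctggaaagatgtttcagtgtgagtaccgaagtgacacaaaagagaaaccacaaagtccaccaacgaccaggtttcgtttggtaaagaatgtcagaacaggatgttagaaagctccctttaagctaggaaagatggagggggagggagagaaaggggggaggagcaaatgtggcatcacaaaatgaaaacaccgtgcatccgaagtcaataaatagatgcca

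The Retnla window held 1 match with the STAT6 spacing, 145 to 136 bases before the start, followed at 134 to 127 bases by 1 match to the C/EBP pattern. It also held 1 PU.1 match on the opposite strand. The Acod1 window held 1 PU.1 match at 208 to 203 bases. Retnla and Acod1 each had 1 TATAAA match past the end of the printed letters, at 30 to 25 and 28 to 23 bases before the start. None of the 5 patterns was found in the Chil3 or the Gpnmb window of 250 bases. Of 32851 RefSeq promoter windows of 250 bases, 5.85% held TTCNNNNGAA, 9.56% TTGCNNAA, 23.3% GAGGAA, 3.25% TCATGTG and 12.4% TATAAA. A match is a likeness of letters and says nothing of binding.

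The 10 genes differed widely in abundance. Per kilobase of exon, the median over the 30 libraries was highest for Chil3, at 98.1 CPM per kb, followed by Gpnmb at 23.6, Trem2 at 14.3 and Mrc1 at 9.21. Msr1 and Arg1 followed at 3.64 and 3.55 CPM per kb. Acod1, Nos2 and Cd163 lay close together at 0.869, 0.810 and 0.791 CPM per kb, and Retnla was lowest at 0.366. Neighbours in this order overlapped over the libraries. Retnla had 3 counts or fewer in 13 of 30 libraries and Acod1 in 2, so their differences rest on few reads.

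**Figure D1:**
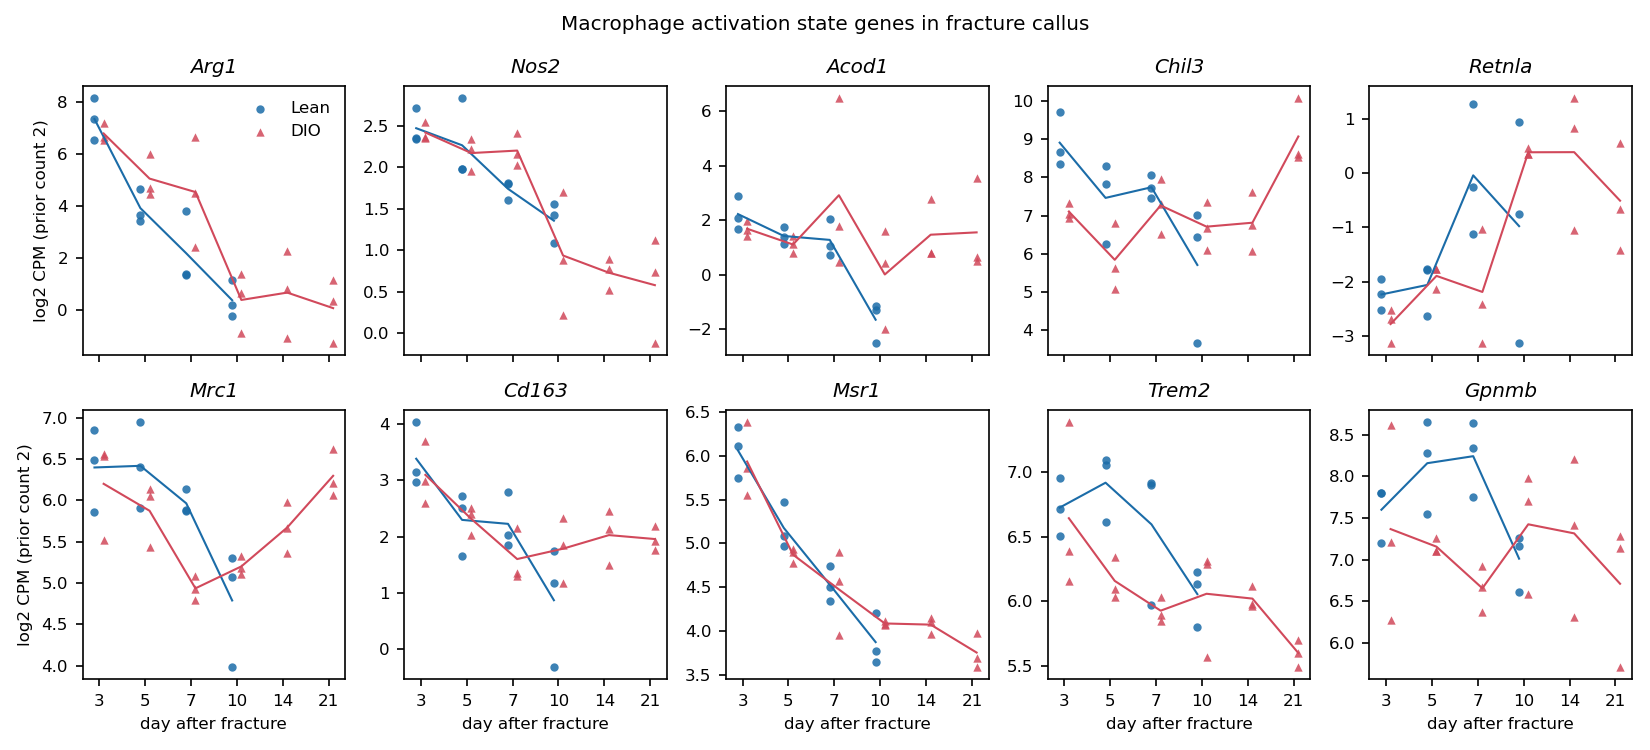
Level of each of the 10 genes (vertical axes, log2 CPM with a prior count of 2, a separate scale for each gene) against the day after fracture (horizontal axes) in lean (blue circles) and DIO (red triangles) callus. Each point is 1 library and lines join group means. Arg1 and Msr1 fell with time in both diets, while Chil3 in DIO callus had its highest group mean on d21. Mrc1 in DIO callus fell to d7 and on d21 was close to its d3 mean.

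How the genes moved as a lean callus healed was asked first. Between d3 and d10, Arg1, Acod1, Chil3, Cd163, Msr1, Mrc1 and Nos2 all fell, Arg1 the most, and no member was called higher. Over all lean days together, 7 of the 10 members changed, against 19% of the 16471 genes tested (edgeR quasi-likelihood test, Benjamini-Hochberg adjusted p under 0.05). Chil3, Retnla and Trem2 missed the threshold, at adjusted p of 0.0641, 0.0933 and 0.0968. The calls of Arg1, Acod1 and Msr1 held in each of the 12 fits with 1 library left out. That of Nos2 was lost in 10 of the 12 fits, with adjusted p up to 0.11, and that of Gpnmb in 9, up to 0.0845. Those of Mrc1 and Cd163 were lost in 3 each, Mrc1 without d3 replicate 2 or d10 replicate 1 or 2, up to 0.0609, and Cd163 without d3 replicate 1 or 3 or d10 replicate 2, up to 0.0921.

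Arg1, which turns arginine into ornithine and urea, gave the steepest fall. In lean callus its level was 281, 91.6 and 163 CPM on d3, then 12.4, 10.6 and 25.0 CPM on d5. Levels of 13.9, 2.39 and 2.46 CPM followed on d7 and of 2.07, 0.738 and 1.02 CPM on d10. The d3 libraries lay above all 9 later ones, and the d10 libraries below all the others. From d3 to d10 the log2 difference was -7.09 ± 0.84 (SE), a 136-fold decrease (adjusted p = 0.000268). On d5 the log2 difference from d3 was -3.45 ± 0.67 with an adjusted p of 0.0506.

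Nos2, the inducible enzyme that uses arginine to make nitric oxide, moved far less. It measured 6.47, 4.99 and 4.95 CPM on d3 and 2.57, 2.01 and 2.82 CPM on d10 in lean callus, and the groups did not overlap. The log2 difference of -1.11 ± 0.30 had an adjusted p of 0.0159. Without d3 replicate 1 it was -0.97 with an adjusted p of 0.0595, and without d10 replicate 2 it was -1.01 with an adjusted p of 0.0501. Both enzymes draw on the same substrate, so their levels per kilobase were set against each other within each callus. On d3 Arg1 stood 36.4, 65.3 and 86.1 times above Nos2 in the lean calli in rising order. On d10 the ratios were 0.716, 0.726 and 1.59, so that the messages of the enzymes were about equally abundant.

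**Figure D2:**
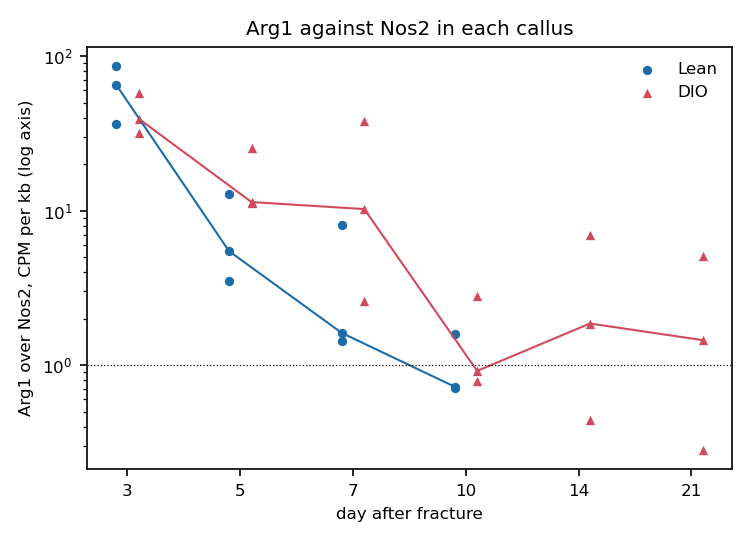
Ratio of Arg1 to Nos2, both in CPM per kb of exon (vertical axis, log scale), against the day after fracture (horizontal axis) in each lean (blue circles) and DIO (red triangles) callus, with lines through group medians. The medians fell from 65.3 to 0.726 in lean callus by d10, and DIO d7 spread from 2.62 to 38.1.

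Acod1, which makes itaconate, stayed between 1.54 and 7.36 CPM in the 9 lean libraries of d3 to d7. On d10 it was at 0.0627, 0.335 and 0.300 CPM, from 1, 5 and 5 counts. The log2 difference from d3 was -4.31 ± 0.58 (adjusted p = 0.0006). From d7 to d10 Acod1 was the only member called, at -3.38 ± 0.59 (adjusted p = 0.0217), while 2.73% of all genes tested were called. Its call was lost without d7 replicate 1 (adjusted p = 0.0566), d7 replicate 2 (0.0836) or d10 replicate 1 (0.0544). DESeq2 called 3 further members for this step, Arg1, Mrc1 and Gpnmb.

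Msr1, a class A scavenger receptor for modified lipoproteins, fell in even steps. Its lean levels were 79.7, 53.7 and 68.8 CPM on d3 and 44.3, 31.3 and 33.8 CPM on d5. They were 26.7, 22.6 and 20.2 CPM on d7 and 18.4, 12.4 and 13.6 CPM on d10. No 2 of these groups overlapped. The log2 difference from d3 to d10 was -2.15 ± 0.22, the smallest adjusted p of any member in lean callus (0.000127). Cd163, the receptor for haptoglobin-bound haemoglobin, went from 8.72, 7.75 and 16.4 CPM to 0.689, 2.15 and 3.24 CPM, a log2 difference of -2.40 ± 0.52 (adjusted p = 0.00588). Mrc1, the mannose receptor, lay between 57.8 and 123 CPM until d7 and then measured 15.7, 33.7 and 39.3 CPM on d10, below the 57.8, 89.3 and 116 CPM of d3 (log2 difference -1.53 ± 0.35, adjusted p = 0.00811).

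Chil3, a secreted chitinase-like protein without enzyme activity, was the most abundant member, at 406, 835 and 328 CPM on d3. By d10 it was at 12.6, 129 and 87.6 CPM, a log2 difference of -2.73 ± 0.71 (adjusted p = 0.0139). Without d3 replicate 2 the difference was -2.24 and its adjusted p 0.0561, and without d10 replicate 2 it was -3.37. Trem2, a lipid-sensing receptor that signals through Tyrobp, lay at 124, 90.9 and 105 CPM on d3 and at 55.7, 74.9 and 70.3 CPM on d10, with no overlap and an adjusted p of 0.0679, and was called by DESeq2. Gpnmb, a glycoprotein of lysosomes and phagosomes, had its highest lean levels on d5 and d7, up to 402 CPM, and did not pass the test between d3 and d10 (log2 difference -0.55 ± 0.30, adjusted p = 0.192).

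Retnla, a secreted protein named for its kinship with resistin, ran against the others but on few reads. Its lean libraries held 1, 4 and 2 counts on d3 and 3, 3 and 1 counts on d5. They held 39, 12 and 6 counts on d7, then 0, 27 and 8 counts at the last lean time. The d10 callus without a count was replicate 1, the library that stood apart. The log2 difference from d3 to d10 was 2.81 ± 1.18 (adjusted p = 0.0921).

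From d3 to d10, 7 of the 10 members were called in lean callus, all of them lower. Of all genes tested 29.3% were called and 14.1% were called lower. The median log2 difference was -1.84 over the members and 0.02 over all genes. The neighbouring days held fewer calls. Between d3 and d5, 0 of 10 members passed the edgeR test, 3 having an unadjusted p under 0.05, with 0.449% of all genes called, and DESeq2 called Arg1 and Msr1. Between d5 and d7 edgeR called 0% of genes and 0 members, 926 genes and 2 members having an unadjusted p under 0.05, and DESeq2 called 37 genes, none of them a member.

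Other genes of the same circuits were read beside the members in lean callus. Of 21 measured genes of the interferon-gamma and lipopolysaccharide pathway, 11 fell and none rose between d3 and d10, among them the transcription factor Irf5 (log2 difference -1.63 ± 0.18) and the cytokines Tnf (-2.35 ± 0.43) and Il1b (-2.56 ± 0.54). Of 16 measured genes of the interleukin-4 and interleukin-13 pathway, 5 fell and none rose, including the receptor chain Il4ra (-1.33 ± 0.38) and the factor Stat6 (-0.34 ± 0.11). The ligand genes, looked up after the list had been read, were close to the floor. Il4 had its highest lean group mean on d3, at 0.38 CPM, and Il13 had no count in any lean library of d5, d7 or d10. Of 12 genes of haem and iron handling, 3 fell and 2 rose, with a median log2 difference of -0.002. Hmox1, which breaks down haem, fell by 2.23 ± 0.26 on the log2 scale. The log2 differences given here for single genes all have adjusted p under 0.05.

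Markers of the cells that could carry these messages moved as well. Of the 16 macrophage markers, 9 fell and 2 rose between lean d3 and d10, with a median log2 difference of -0.86. Their summed level was 5954 to 7110 CPM on d3 and 2495 to 3660 CPM on d10. Of 14 neutrophil markers 9 fell and 1 rose, with a median of -2.33. All 10 osteoclast markers rose, with a median of 3.55, and their summed level went from 978 ± 71.5 CPM (SD, n = 3) to 10690 ± 1842 CPM. The part of these cell types in the fall of the members was not tested.

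In DIO callus the question was asked over d3 to d21. Arg1, Nos2, Msr1, Cd163 and Trem2 were lower on d21 than on d3, whereas Chil3 and Retnla were higher. Over all DIO days 9 of 10 members changed, with 59.1% of the 16995 genes tested also called. Gpnmb was the exception (adjusted p = 0.411). The call of Acod1 rested on d7 replicate 1 (adjusted p of 0.5 without it) and that of Cd163 on d3 replicate 1 (0.097 without it).

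Arg1 levels in DIO callus were 145, 91.4 and 99.9 CPM on d3 and 21.5, 25.7 and 64.0 CPM on d5. On d7 the libraries spread to 101, 22.4 and 5.24 CPM. From d10 on, all 9 libraries lay between 0.294 and 4.62 CPM. The step from d7 to d10 was called, at a log2 difference of -4.89 ± 0.98 (adjusted p = 0.00265). It was -3.26 without d7 replicate 1 and -5.53 without d10 replicate 2, and was called in both fits. From d3 to d21 the difference was -6.57 ± 1.02, a 95.0-fold decrease (adjusted p = 6.81e-05), and -7.26 without d21 replicate 1.

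Nos2 lay between 3.75 and 5.70 CPM in the 9 DIO libraries of d3 to d7 and between 0.806 and 3.15 CPM in the 9 libraries of d10 to d21. The late libraries were all below the early ones. From d7 to d10 the log2 difference was -1.19 ± 0.36 (adjusted p = 0.0353), a call lost without d7 replicate 1 (adjusted p = 0.1), d7 replicate 2 (0.0667), d10 replicate 2 (0.121) or d10 replicate 3 (0.141). From d3 to d21 it was -1.83 ± 0.36 (adjusted p = 0.000564), and that call held in each fit with a library left out.

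Msr1 dropped by d5, from 83.3, 58.0 and 46.9 CPM to 27.3, 30.5 and 29.9 CPM. It was the only member called in that step (log2 difference -1.10 ± 0.21, adjusted p = 0.0119), where 1.68% of all genes were called. Without d3 replicate 1 the adjusted p was 0.0897 and without d5 replicate 1 it was 0.0553. By d21 Msr1 measured 12.9, 11.98 and 15.7 CPM, a log2 difference from d3 of -2.21 ± 0.22 (adjusted p = 1.46e-06). Trem2 went from 168, 83.6 and 71.2 CPM to 44.9, 52.0 and 48.5 CPM over the same time (log2 difference -1.15 ± 0.25, adjusted p = 0.00126). Cd163 went from 12.9, 7.88 and 5.93 CPM to 4.43, 3.70 and 3.27 CPM (-1.23 ± 0.36, adjusted p = 0.0098), a call lost without d3 replicate 1 (-0.89, adjusted p = 0.0656).

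Mrc1 followed a different course. Its DIO levels were 92.3, 93.9 and 45.6 CPM on d3 and reached their lowest on d7, at 30.3, 33.8 and 27.7 CPM. They then stood at 39.9, 34.3 and 36.1 CPM on d10, 50.7, 63.1 and 41.1 CPM on d14 and 98.3, 73.8 and 66.6 CPM on d21. The d7 libraries lay below every other DIO library, and the d21 libraries above those of d7, d10 and d14. Between d3 and d21 the groups overlapped and Mrc1 was not called (log2 difference 0.04 ± 0.24, adjusted p = 0.907). Neither the step from d5 to d7 (log2 difference -0.97 ± 0.25, adjusted p = 0.104) nor that from d14 to d21 (0.62 ± 0.25, adjusted p = 0.0817) passed the edgeR test, and DESeq2 called the first of them.

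Retnla was close to the floor in early DIO callus. DIO d3 held 1, 1 and 0 counts in the 3 libraries, DIO d5 4, 3 and 2, and DIO d7 6, 1 and 0. DIO d10 held 15, 16 and 18 counts, at 1.15, 1.15 and 1.26 CPM, and the 3 groups from d10 on summed to 49, 79 and 37 counts. Against the 2 counts of d3, d21 was 19.8-fold higher with a counting interval of 5.12 to 170 (95%, exact), which covers counting error only. The fitted log2 difference was 4.08 ± 1.06 (adjusted p = 0.00476), and 3.22 without d21 replicate 2. From d7 to d10 it was 2.88 ± 0.88 (adjusted p = 0.0377). That call was lost without d7 replicate 2 or 3, any of the d10 replicates or d14 replicate 1, with adjusted p between 0.0501 and 0.126, and the difference was 4.81 without d7 replicate 1. The adipokine Retn, its relative, rose from 0.518 ± 0.39 CPM on d3 to 10.6 ± 1.55 CPM on d21 (SD, n = 3). Retnlg, a relative found in neutrophils, went from 47.3 ± 7.56 to 446 ± 236 CPM.

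Chil3 in DIO callus lay at 123, 162 and 131 CPM on d3 and between 34.0 and 250 CPM from d5 to d14. On d21 it measured 1076, 368 and 393 CPM, above the 15 other DIO libraries. The rise from d14 to d21 was 2.30 ± 0.52 on the log2 scale (adjusted p = 0.00692), 1 of 10 members called where 19.6% of genes were. Without d21 replicate 1 it was 1.61 with an adjusted p of 0.0525. From d3 to d21 it was 2.14 ± 0.52 (adjusted p = 0.00297), and 1.43 without d21 replicate 1.

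In all, 7 of 10 members were called between DIO d3 and d21, with 45.3% of all genes called. The 5 lower members compare with 21.8% of genes called lower, and the 2 higher members with 23.5% called higher. The median log2 difference was -0.99 over the members and 0.03 over all genes. Between d5 and d7, 0 of 10 members were called by edgeR, 3 having an unadjusted p under 0.05, with 0.0177% of all genes called, and DESeq2 called 1 member, Mrc1. Between d7 and d10 the count was 4 of 10 (Arg1, Nos2 and Acod1 lower, Retnla higher), with 13% of all genes called. Between d10 and d14 it was 0 of 10 with edgeR and with DESeq2, and 0 had an unadjusted p under 0.05, with 0.759% of all genes called by edgeR.

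The wider circuits were counted in DIO callus too, where 23.5% of all genes rose and 21.8% fell between d3 and d21. Of the 21 interferon-gamma and lipopolysaccharide genes 6 rose and 6 fell, with Gch1, which makes the cofactor of nitric oxide synthases, up (2.79 ± 0.39) and the prostaglandin synthase Ptgs2 down (-3.90 ± 0.50). Of the 16 interleukin-4 and interleukin-13 genes 6 rose and 5 fell, with the transcription factors Pparg (2.22 ± 0.21) and Irf4 (4.74 ± 0.50) up and Il4ra down (-2.32 ± 0.24). Markers of other cells moved over the same days. Of the 14 neutrophil markers 12 rose and none fell, and their summed level went from 2934 to 4850 CPM on d3 to 15500 to 32383 CPM on d21. All 8 adipocyte markers rose, as did 7 of 8 eosinophil and mast cell markers. The 16 macrophage markers summed to 2951 to 6483 CPM on d3 and 4025 to 5382 CPM on d21, with 1 higher and 4 lower. The part of these cells in the changes of the members and of the circuit genes, Pparg and Irf4 among them, was not tested. No list of B-cell markers was read here.

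Acod1 had 1 outlying callus, which also held the most Arg1 of its group. DIO d7 replicate 1 held 88.5 CPM of Acod1 from 1406 counts, while its group mates held 3.38 and 1.28 CPM, and no other of the 30 libraries exceeded 11.5 CPM. Arg1 in the same callus was 101 CPM against 22.4 and 5.24 CPM. Cxcl2, a chemokine that draws neutrophils and was among the genes nearest to Acod1 in pattern, was at 62.6 CPM there and at 1.40 and 0.538 CPM in its group mates. The ranking that picked Cxcl2 included this callus, so its level there is not independent of Acod1. Mrc1 and Gpnmb in that callus, at 30.3 and 102 CPM, lay between those of its group mates. Its similarity to its group (mean r of 0.962) was no lower than that of the other 2 (0.959 and 0.958). The fall of Acod1 from DIO d7 to d10 was -4.46 ± 1.30 (adjusted p = 0.0292) with that library and -0.71 (adjusted p = 0.727) without it. It was also lost without d10 replicate 2 (adjusted p = 0.106) or d10 replicate 3 (0.104), and was -5.51 without d10 replicate 1.

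The comparison of diets was made within each day from d3 to d10. Gpnmb and Mrc1 were lower in DIO than in lean callus on d7, and these were the only members to pass the test in any day. Of 16 macrophage markers, 3 were called on the same day, all lower in DIO callus.

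**Figure D3:**
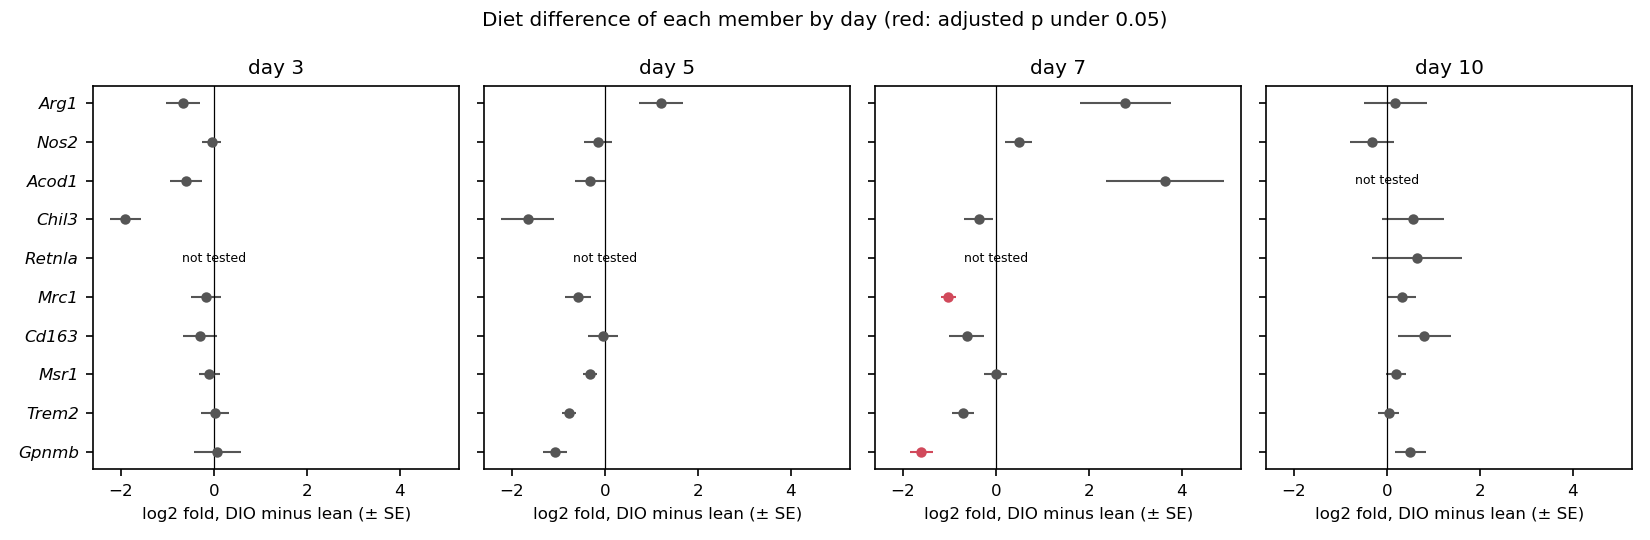
Log2 fold difference of DIO from lean callus (horizontal axes, points with SE) for each member (vertical axis) on d3, d5, d7 and d10, from edgeR fits of 3 against 3 libraries. Red points have an adjusted p under 0.05: Mrc1 and Gpnmb on d7. Retnla on d3 to d7 and Acod1 on d10 fell under the filter on low counts.

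Gpnmb on d7 measured 397, 324 and 215 CPM in lean callus and 102, 82.7 and 121 CPM in DIO callus. Every DIO callus lay below every lean one. The log2 difference was -1.60 ± 0.25, a 3.03-fold lower level (edgeR adjusted p = 0.0173). The highest lean group mean of Gpnmb and the lowest DIO one both fell on d7, 312 ± 91.6 CPM against 102 ± 19.1 CPM (SD, n = 3). In edgeR neither the lean step from d3 to d5 (adjusted p = 0.363) nor that from d7 to d10 (0.0539) was called. Over all DIO days Gpnmb was not called either (0.411). On d5 the DIO calli, at 138, 153 and 137 CPM, also lay below the lean ones, at 310, 402 and 186 CPM, but the difference did not pass the test (-1.07 ± 0.25, adjusted p = 0.0896). On d3 and d10 the groups overlapped.

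Mrc1 on d7 measured 58.8, 70.2 and 58.6 CPM in lean and 30.3, 33.8 and 27.7 CPM in DIO callus, again without overlap. Its log2 difference of -1.02 ± 0.16 was a 2.03-fold lower level (adjusted p = 0.0195). Both calls were lost without lean d7 replicate 1 (adjusted p of 0.0602 for Gpnmb and 0.0654 for Mrc1), lean d7 replicate 2 (0.0769 and 0.123) or DIO d7 replicate 1 (0.0511 and 0.0606). The differences then lay between -1.60 and -1.38 for Gpnmb and between -1.06 and -0.94 for Mrc1. With all 30 libraries in 1 fit, the adjusted p was 0.0609 for Gpnmb and 0.0595 for Mrc1.

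On d7, 2 of the 9 members tested were called, both lower, where 2.32% of genes were called and 0.92% were called lower. The median log2 difference over the 9 members was -0.37 and over all genes -0.001. The 3 macrophage markers called were the growth factor receptor Csf1r (-1.02 ± 0.19), the lysosomal glycoprotein Cd68 (-0.96 ± 0.17) and the pore-forming protein Mpeg1 (-1.06 ± 0.17). The summed level of the 16 was 4149 to 5648 CPM in lean and 2733 to 3230 CPM in DIO callus on d7. The call of Mpeg1 was lost in 2 of the 6 fits with a library left out and those of Csf1r and Cd68 in 4. Of 9 osteoclast markers tested, 6 were lower in DIO callus and none higher, with a median of -1.17, and these calls were lost in 2 to 5 of the 6 fits. The part of macrophage and osteoclast content in the lower Gpnmb and Mrc1 was not tested.

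To read the members against the macrophage marker list, the mean log2 CPM of its 16 genes was subtracted from each member. Gpnmb on d7 then still lay lower in DIO callus without overlap, at 1.65, 1.26 and 1.08 in lean and 0.29, 0.28 and 0.75 in DIO libraries, a difference of -0.89. Mrc1 on d7 overlapped on this scale, with a difference of -0.33 and values of -1.11, -0.94 and -0.79 in lean and -1.46, -1.01 and -1.38 in DIO libraries. Nos2 on d7 lay higher in DIO callus (1.16), as did Msr1 (0.64), and so did Arg1, Nos2, Retnla, Cd163 and Msr1 on d5 (1.81, 0.58, 0.84, 0.69 and 0.37). Chil3 on d3 lay lower (-1.49). Each of these had p = 0.1 in a two-sided exact permutation test, the smallest that 3 against 3 libraries allow, and 0.444 after adjustment over the 40 members and days. Because the markers themselves differed by diet, much of the genome did not overlap on this scale. On d3, 1 of 10 members did not overlap, where 11.2% of all genes did not. On d5 the count was 5 of 10 with 62.3% of genes, on d7 it was 3 of 10 with 50.9%, and on d10 it was 0 of 10 with 14.3%.

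On d3, 0 of the 9 members tested were called, 1 having an unadjusted p under 0.05, and edgeR called 0% of 15772 genes, 2374 of which had an unadjusted p under 0.05. DESeq2 called 728 genes and 1 member, Chil3. Chil3 measured 406, 835 and 328 CPM in lean and 123, 162 and 131 CPM in DIO callus, without overlap (log2 difference -1.90 ± 0.33, edgeR adjusted p = 0.0852). The 14 neutrophil markers did not overlap either, with summed levels of 13715 to 29507 CPM in lean and 2934 to 4850 CPM in DIO callus. Their part in the lower Chil3 was not tested. On d5, 0 of 9 were called by edgeR, 4 having an unadjusted p under 0.05. Of 15722 genes 1.08% were called, and 2913 had an unadjusted p under 0.05. Trem2 (-0.77 ± 0.16, adjusted p = 0.0665), Gpnmb and Msr1 did not overlap between diets on that day, each lower in DIO callus, and DESeq2 called Trem2 and Gpnmb. The share of all genes that did not overlap in CPM was not computed for any day, so these overlaps have no background beside them. The 16 macrophage markers did not overlap on d5 either, with summed levels of 5077 to 6925 CPM in lean and 3158 to 3627 CPM in DIO callus, and 1 of them was called, Lyz2 (-1.07 ± 0.18), a call lost in 4 of the 6 fits with a library left out. Their part in the lower Trem2, Gpnmb and Msr1 was not tested. On d10, 0 of 9 were called by edgeR or DESeq2, 0 had an unadjusted p under 0.05, and edgeR called 0% of genes, 1082 of 15341 having an unadjusted p under 0.05, while DESeq2 called 47. All 10 members overlapped between diets on d10.

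Arg1 pointed the other way on d5 and d7. It measured 12.4, 10.6 and 25.0 CPM in lean and 21.5, 25.7 and 64.0 CPM in DIO callus on d5, and 13.9, 2.39 and 2.46 against 101, 22.4 and 5.24 CPM on d7. The groups overlapped on both days and neither difference passed the test (1.21 ± 0.47, adjusted p = 0.229, and 2.79 ± 0.98, adjusted p = 0.184). Nos2 was higher in each DIO library on d7, at 5.23, 4.34 and 3.97 against 3.40, 2.93 and 3.37 CPM, with a log2 difference of 0.49 ± 0.29 (adjusted p = 0.458). Cd163 overlapped between diets on every day.

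Whether the diet difference itself changed over d3 to d10 was tested with interaction terms. In edgeR 0 of the 10 members passed, 5 having an unadjusted p under 0.05 and Gpnmb having the smallest adjusted p (0.121), and 1.65% of the 17057 genes tested did. DESeq2 called 1 member, Gpnmb. In the test of a separate smooth time course for each diet, with polynomials of degree 2, 1 member was called, Gpnmb (adjusted p = 0.0274), where 8.13% of genes were. That call was lost without lean d5 replicate 2 (adjusted p = 0.0617), lean d7 replicate 1 (0.0594), lean d7 replicate 2 (0.0549), DIO d7 replicate 1 (0.0545) or DIO d7 replicate 2 (0.0679). Without DIO d7 replicate 3, 4 members were called.

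List genes around the members differed between diets in few cases. On d5, the interferon-gamma and lipopolysaccharide genes Irf1 (-0.67 ± 0.11) and Irf5 (-0.93 ± 0.17) were lower in DIO callus. On d7 the chemokine Cxcl9 was lower (-1.91 ± 0.35) and Ptgs2 higher (2.02 ± 0.39). Of 15 interleukin-4 and interleukin-13 genes, Clec7a was lower on d5 (-1.35 ± 0.22) and Pparg on d7 (-1.39 ± 0.28). Among 17 genes of lipid-associated macrophages, Abcg1 (-1.06 ± 0.19) and Lpl (-1.35 ± 0.29) were lower on d7. Each of these 8 calls was lost in 4 or 5 of the 6 fits with a library left out.

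Chit1, an active chitinase of macrophages and a relative of Chil3, was the exception in size. It measured 0.645 to 1.07 CPM in lean and 11.1 to 17.3 CPM in DIO callus on d7, a log2 difference of 4.05 ± 0.33 (adjusted p = 0.0018). The call held in each of the 6 fits with a library left out, with adjusted p up to 0.011. Chil3 on the same day did not pass the test (-0.37 ± 0.32, adjusted p = 0.624). Chil4, whose transcript is 94.3% identical to that of Chil3 over its whole length, was listed at 0 in 8 of the 10 groups, so reads assigned to Chil3 are uncertain to the extent that the counting could not separate the pair. The predicted gene Gm6522 was 95.0% identical over 76.1% of the Chil3 transcript.

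The members did not form 1 group by pattern. Over the log2 CPM of the 30 libraries, which share diets, days and libraries with each other, Arg1 and Msr1 had a Pearson r of 0.90, while Retnla ran against Arg1 (-0.66), Nos2 (-0.64) and Msr1 (-0.58). The 3 genes nearest to each member were ranked by the same r among 17357 genes. For Arg1 they were the chemokine Ccl2 (0.91), Ms4a6d (0.91) and Tgfbi (0.90), and for Msr1 they included C3ar1 (0.93) and Ms4a6d (0.93). Mrc1 was nearest to Ms4a6b (0.94), Ms4a6c (0.92) and the macrophage marker Adgre1 (0.91). Trem2 was nearest to Tmem106a (0.91) and the complement genes C1qb (0.89) and C1qa (0.89). Gpnmb was nearest to the lysosomal genes Psap (0.83) and Lipa (0.81) and to Trem2 (0.77).

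Nos2 was nearest to Sod3, a secreted superoxide dismutase (0.93), Map1b (0.92) and Nfic (0.91). Acod1 was nearest to the cystine transporter Slc7a11 (0.90), Il1rn (0.86) and Cxcl2 (0.85). Cd163 was nearest to Pf4 (0.86), Ms4a4d (0.85) and Rab32 (0.85), and Retnla to Cmbl (0.83), St3gal6 (0.83) and Mpc2 (0.82). Chil3 was nearest to Camp (0.97) and Ngp (0.97), both proteins of neutrophil granules, and to Prom1 (0.97). With the mean of the 14 neutrophil markers, which include Camp and Ngp, the r of Chil3 was 0.95, and with that of the 16 macrophage markers it was 0.47. Mrc1 gave 0.42 and 0.86 with the same lists.

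**Figure D4:**
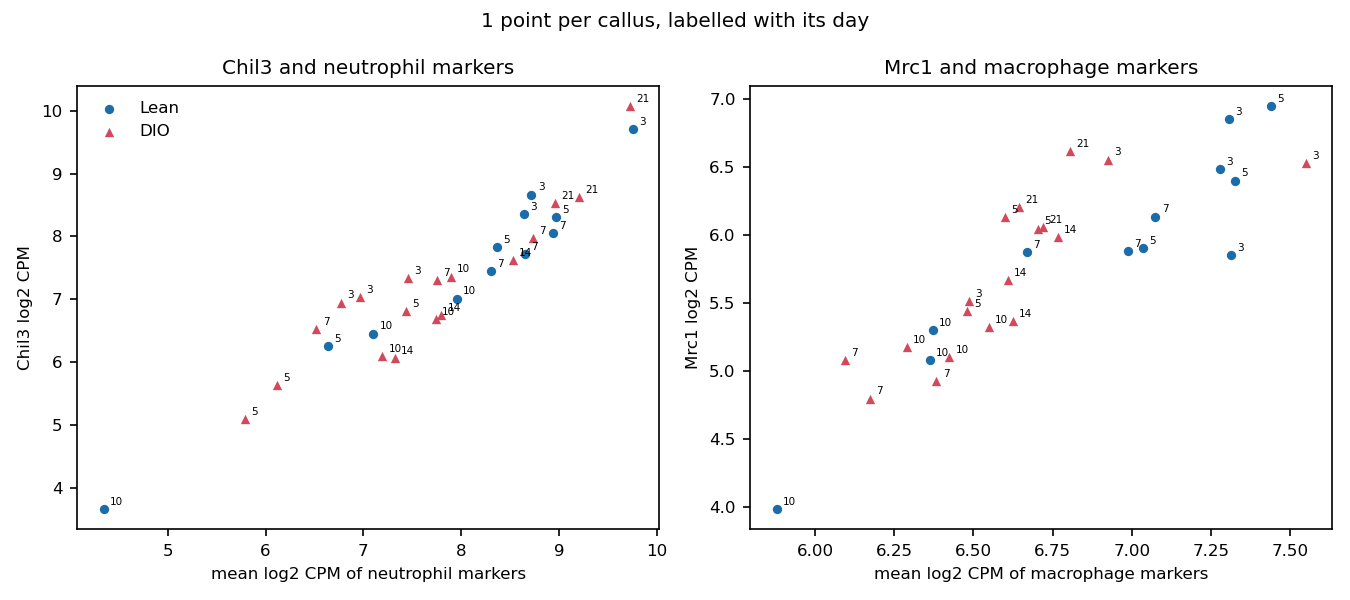
Left, Chil3 (vertical axis, log2 CPM) against the mean log2 CPM of 14 neutrophil markers (horizontal axis). Right, Mrc1 against the mean of 16 macrophage markers. Each point is 1 of 30 libraries, lean in blue circles and DIO in red triangles, labelled with its day. Chil3 rises with the neutrophil markers over the whole range (Pearson r of 0.95), and Mrc1 with the macrophage markers (0.86).

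Chil3 spanned 6.40 log2 units over the 30 libraries, from 3.67 to 10.07. After the neutrophil mean was subtracted it spanned 1.59 units, and the SD went from 1.31 to 0.41. On this scale the d3 groups overlapped between diets, with values from -0.29 to -0.05 in lean and from -0.12 to 0.17 in DIO libraries. The d5 and d10 groups overlapped as well. On d7 they did not, with values from -0.93 to -0.85 in lean and from -0.76 to 0.01 in DIO libraries. DIO d21, at -0.59 to 0.34, lay above DIO d14, at -1.25 to -0.90. The share of all genes without overlap on this scale was not computed. The part of neutrophils in the level of Chil3 was not tested.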

How the data were processed

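RNA of 30 fracture calli, 1 mouse each, was sequenced from stranded poly(A) libraries. The authors trimmed reads with bcl2fastq and BBDuk, aligned them to GRCm38 with HISAT2 (2.1.0, per the labels) and deposited raw counts per gene made with HTSeq, whose version, strand option and annotation are not given in the sources used here. Ensembl identifiers were named through GENCODE M21, with 42548 of 43629 matched. Totals ran from 13247122 to 26365620 counts, and counting error is largest for Retnla and Acod1.

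Counts were tested with edgeR (4.0.16, R 4.3.3): filterByExpr, TMM factors, quasi-likelihood F-tests and Benjamini-Hochberg adjustment over all genes tested, with the threshold at 0.05. Lean days and DIO days were fitted separately, diets within each day, and changes of the diet difference over the 24 libraries of d3 to d10. Standard errors of log2 differences were derived from the F statistics. Log2 CPM used a prior count of 2. The study compared groups with DESeq2 and the time courses of the diets with maSigPro at polynomial degree 2. The degree is kept here in an edgeR fit, maSigPro was not run, and DESeq2 (1.42.0) was an alternative, beside DESeq2's size factors, no filter beyond 1 count, a replicate block, 1 fit of all 30 libraries and each library left out. The relative measure used two-sided exact permutation tests. The fitting code was tested on simulated data. Transcripts were compared with BLAST (2.17.0).

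The members and the gene lists were chosen with earlier results of these data known. Named beside the members are at most 4 genes per list and comparison with the smallest adjusted p, marker genes, sequence relatives and, for each member, the 3 genes with the largest Pearson r of log2 CPM. A few genes and patterns that these rules name are not reported here. The replicates of a group are separate mice, and over 30 replicate pairs chi-square per degree of freedom was 13.6 to 160, so replicates differed by more than sampling noise. Lists not described in the text, for scavenger receptors, resident macrophages, osteoblasts, endothelium and muscle, gave 6 of 10, 6 of 9, 7 of 8, 1 of 8 and 0 of 7 calls between lean d3 and d10, and the arginine and lipid-associated lists gave 7 of 14 and 7 of 17.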

Additional observations from a re-analysis of the deposited data

Results flagged for a closer look

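In 11 list genes the diet difference itself changed over d3 to d10 (edgeR test of the interaction terms, adjusted p given). No member was among them. All 11 calls were lost without lean d7 replicate 2, where 0 genes were called in all against 282 with every library, and 1 gene was called without DIO d10 replicate 1 and 21 without DIO d10 replicate 2. Over the 24 fits with a library left out, each of the 11 was lost in 2 (Oscar, Chit1) to 19 (Ctsk). They included 5 osteoclast genes, Oscar (adjusted p = 0.0151), Dcstamp (0.026), Acp5 (0.0277), Ocstamp (0.0277) and Ctsk (0.0483), each lower in DIO callus on d7, with log2 differences between -1.63 (Oscar) and -1.05 (Ocstamp), and not called on d3, d5 or d10. The d7 calls were lost in 2 (Oscar), 3 (Dcstamp, Acp5) and 5 (Ocstamp, Ctsk) of the 6 fits with a library left out, with adjusted p up to 0.192. Csf1r, the receptor on which macrophages and osteoclasts depend, behaved likewise (adjusted p = 0.0435, log2 difference on d7 -1.02). Gpnmb and Mrc1 were lower in DIO callus on the same day.

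Chit1 (adjusted p = 0.0182) had a log2 difference of 4.05 ± 0.33 on d7, its only call. It was -1.96 ± 0.59 on d3 and 1.72 ± 0.73 on d5, and on d10 it was -1.33 ± 0.82. Ddah1, which breaks down inhibitors of nitric oxide synthases (0.0295), was 2.22 ± 0.48 on d7. Irf1 (0.0283) was -0.67 ± 0.11 on d5, and Pparg (0.0354) and Adipoq (0.0334) were -1.39 ± 0.28 and -1.85 ± 0.35 on d7. Of the 6 fits with a library left out, the d7 calls of Ddah1 and Pparg were lost in 4 each. That of Adipoq on d7 and that of Irf1 on d5 were lost in 5 each.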

How the results depend on the processing

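Of the 40 calls of members, those over lean days (7), over DIO days (9) and in the diet time course (1) carry no direction. None of the other calls changed direction under any alternative. All 40 were kept with DESeq2's size factors and with DESeq2. Without a filter 39 were kept, with the replicate block 38 and in 1 fit of all 30 libraries 33 of 39. With each library left out in turn, 22 of the 40 stayed past the threshold in every fit and 18 did not.

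The number of members called moved for several comparisons. Between lean d3 and d5 it went from 0 to 2 with DESeq2, 1 without a filter and 2 in the fit of all libraries. Between lean d7 and d10 it went from 1 to 4 with DESeq2 and 2 without a filter. Between DIO d5 and d7 it went from 0 to 1 with DESeq2 and 2 without a filter. For the diets it went from 0 to 1 on d3 and from 0 to 2 on d5 with DESeq2 and also without a filter. On d7 it went from 2 to 4 without a filter and 0 in the fit of all libraries. For the interaction it went from 0 to 1 with DESeq2 and without a filter, and for the diet time course from 1 to 4 with DESeq2 and 3 without a filter. The cause was not tested.

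With 1 library left out the counts ranged from 3 to 7 over lean days, 0 to 1 between lean d3 and d5, 0 to 2 between lean d7 and d10, and 6 to 8 between lean d3 and d10. In DIO callus they ranged from 8 to 9 over all days, 0 to 1 from d3 to d5, 1 to 4 from d7 to d10, 0 to 2 from d14 to d21 and 6 to 7 from d3 to d21. For the diets they ranged from 0 to 1 on d3, 0 to 2 on d5, 0 to 3 on d7, 0 to 1 for the interaction and 0 to 4 for the time course. On the relative measure, 9 of 40 member and day pairs did not overlap, and 9 to 12 did not with a library left out. Leaving out libraries was chosen for this measure after seeing the data. It cannot make separate groups overlap, so the count could only stay or rise and says nothing of stability.

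Replicate numbers were not used as pairs in the main fits. All 3 same-numbered pairs correlated above 0.1 for lean d5 with d7 only. In every pair of lean days, however, the mean correlation of same-numbered libraries was positive, at 0.174 for d3 with d10. The mean over the other pairs, -0.0883 there, adds nothing. Deviations were centred within each group, which drives it to the opposite sign. In DIO callus the mean of same-numbered libraries was positive for some pairs of days and negative for others. Whether same-numbered lean libraries share a source of spread was not tested. With the replicate block the members called were 2 between lean d3 and d5, 5 between lean d7 and d10 and 1 for the diets on d3, and the calls of Acod1 over DIO days and Nos2 between DIO d7 and d10 were lost (adjusted p of 0.0837 and 0.0533).

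Over all genes, edgeR called 0, 170, 366 and 0 genes for the diets at the 4 times, and DESeq2 728, 1150, 944 and 47. Without a filter these were 515, 565, 724 and 29. The block gave 325 on d3 and 0 on d5, and the fit of all libraries 63 on d5, 675 on d7 and 3 on d10. The interaction went from 282 to 1151 with DESeq2 and 503 without a filter, and the time course from 1386 to 2501 with DESeq2. Over lean days DESeq2 called 4848 against 3132. Lean d3 to d5 went from 74 to 605 (DESeq2), 169 (no filter), 199 (block) and 202 (all libraries), lean d5 to d7 from 0 to 37 (DESeq2) and 2 (all libraries), and lean d7 to d10 from 450 to 1827 (DESeq2), 1479 (block) and 1529 (all libraries). DIO d3 to d5 went from 285 to 575 (DESeq2) and 478 (no filter), DIO d5 to d7 from 3 to 346 (DESeq2), 271 (no filter) and 1 (all libraries), and DIO d10 to d14 from 129 to 552 (DESeq2), 329 (no filter), 45 (block) and 2 (all libraries). With 1 library left out, the counts for the diets ranged from 0 to 237 on d3, 0 to 935 on d5, 29 to 936 on d7 and 0 to 10 on d10, the interaction from 0 to 602 and the time course from 619 to 1983. Lean days ranged from 1678 to 3130, lean d3 to d5 from 9 to 251, lean d7 to d10 from 24 to 1141 and lean d3 to d10 from 2863 to 5016. DIO d3 to d5 ranged from 90 to 354, DIO d5 to d7 from 0 to 236, DIO d10 to d14 from 0 to 459 and DIO d14 to d21 from 1285 to 4070. Depth limits Retnla, with 3 counts or fewer in 13 of 30 libraries.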
